A study of Mus musculus with 12 samples.

Results

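Drc1, Myo6, Myl10 and Khdc1c are 4 genes that were far brighter in TEL-JAK2 leukemias than in normal mouse thymocytes. They were chosen by their measured log2 difference between the leukemia and thymocyte arrays, among the largest increases of all genes, and because most have no established role in thymocytes. They are 4 of the 8251 genes with a probe set of their own on the array, and they were measured by 7 of the 10833 probe sets annotated to 1 gene. The 8 arrays of the group TEL-JAK2 leukemia held leukemic cells of TEL-JAK2 mice at the terminal stage of illness, taken from the thymus. The 4 arrays of the group wild-type thymocytes held thymus cells from 2-month-old wild-type animals. All mice were on a C57Bl/6 background, and total RNA was taken from suspensions of mechanically dissociated thymus. TEL-JAK2 is a fusion of Jak2, a tyrosine kinase that activates STAT transcription factors, with TEL (Etv6), itself a transcription factor. The sources used here do not give the promoter that drives TEL-JAK2, the age of the leukemic mice or any sorting of the cells. Arrays are called by a number within their group, which only names them. Most titles carry a number of their own, yet no label states that each array is a different animal, and p-values cover only the spread among these arrays, which may be technical.

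Myo6 and Myl10 both encode parts of myosins, while Drc1 and Khdc1c belong to other groups of proteins. Drc1 encodes a subunit of the nexin-dynein regulatory complex, which ties the outer microtubule pairs of motile cilia and sperm tails together and steadies their beat. Lymphocytes carry no motile cilium. Myo6 encodes myosin VI, a motor that walks toward the minus end of actin filaments, unlike most myosins, and acts in endocytosis, autophagy and the hair cells of the inner ear, where its loss causes deafness in mice. Myl10 encodes a regulatory light chain, the kind of subunit that binds the neck of a myosin heavy chain and sets its activity. Its RefSeq entry carries the synonyms Mylc2pl and PLRLC, from its description as a light chain of precursor lymphocytes. Khdc1c belongs to a mouse family of small proteins with an RNA-binding KH domain, whose best known members are made in oocytes and early embryos.

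The arrays were of similar brightness, with median intensities from 66.48 to 70.18. All levels below are log2 intensities from a Robust Multi-array Average (RMA), so a step of 1 is a doubling. A level was called near the control level where it lay below the 95th percentile of 19 control probe sets for non-mouse transcripts, which was 5.20 to 5.59 depending on the array. The cells of both groups carried T-cell transcripts: Cd3e, a chain of the T-cell receptor complex, averaged 10.98 ± 0.34 in leukemias and 11.18 ± 0.07 in thymocytes. Thy1, a T-cell surface protein, averaged 11.86 ± 0.31 in leukemias and 12.17 ± 0.09 in thymocytes (SD, n = 8 and 4). Socs2, a STAT target, averaged 8.69 ± 0.30 in leukemias and 5.22 ± 0.19 in thymocytes. In the limma model over all genes, 17.3% of genes passed a Benjamini-Hochberg adjusted p under 0.05. Of all genes, 5.41% were higher and 11.9% were lower in leukemia.

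Promoter sequences of Drc1, Myo6 and Myl10 are shown as the table of promoters gives them, and were searched for motifs tied to the biology of the fusion and of cilia. That table, from RefSeq, build GRCm38.p6, gives 250 bases before and 50 bases after a gene start, and held 5 windows for these 3 genes. All 3 Myl10 windows lie inside the interval that the RefSeq gene table gives for Myl10, and not at its first base. The windows shown are the Drc1 promoter (chr5:30281143-30281442, plus strand), the first of 3 Myl10 windows (chr5:136692896-136693195, plus strand) and the Myo6 promoter (chr9:80164784-80165083, plus strand). Capitals mark GGCAAC and the E-box CANNTG.
Drc1: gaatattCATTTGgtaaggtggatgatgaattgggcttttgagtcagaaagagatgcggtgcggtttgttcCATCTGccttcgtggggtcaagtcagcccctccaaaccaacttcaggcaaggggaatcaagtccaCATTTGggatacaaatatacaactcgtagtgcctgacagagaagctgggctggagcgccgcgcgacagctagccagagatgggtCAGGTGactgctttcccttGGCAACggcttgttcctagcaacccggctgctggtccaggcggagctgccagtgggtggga
Myl10: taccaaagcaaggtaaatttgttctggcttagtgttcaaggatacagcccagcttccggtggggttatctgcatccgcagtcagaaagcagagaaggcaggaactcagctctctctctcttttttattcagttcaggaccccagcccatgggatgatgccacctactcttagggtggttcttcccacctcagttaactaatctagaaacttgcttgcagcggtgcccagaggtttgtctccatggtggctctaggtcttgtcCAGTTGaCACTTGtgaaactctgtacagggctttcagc
Myo6: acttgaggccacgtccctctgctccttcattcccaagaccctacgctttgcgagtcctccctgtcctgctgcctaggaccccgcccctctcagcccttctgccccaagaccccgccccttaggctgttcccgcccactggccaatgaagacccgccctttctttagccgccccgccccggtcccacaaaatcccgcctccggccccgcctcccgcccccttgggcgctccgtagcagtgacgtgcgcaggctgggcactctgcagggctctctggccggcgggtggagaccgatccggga
GGCAAC, part of the site of the RFX factors that control cilium genes, was found in the Drc1 window alone, starting at base 240, and 12.5% of 32851 promoter windows of the same length hold it on either strand. CANNTG, the E-box bound by the E proteins of lymphocytes, reads the same on both strands and was found 4 times in the Drc1 window and 2 times in the first Myl10 window, against 72.3% of all windows with at least 1. TTCNNNGAA, the palindrome bound by STAT factors, was in none of the 5 windows, and 8.3% of all windows hold it. TGTGGT, a RUNX site, was in none either, on both strands, and 16.8% of all windows hold it. No match overlapped another. The Myo6 window has 68.3% G and C and 22 CpG steps, the Drc1 window 54.3% and 11, and the first Myl10 window 49.3% and 3, against medians of 52.7% and 7 over all windows. A match describes letters, and its absence says only that they are not in these 300 bases.

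Drc1, on chromosome 5, had levels of 9.26, 10.82, 10.56, 11.15, 10.22, 10.61, 9.24 and 10.76 in leukemias 1 to 8 on its bright probe set (92377_at), against 4.90, 4.87, 4.96 and 5.28 in the thymocyte arrays. Every leukemia lay far above every thymocyte array, leukemias 1 and 7 were the lowest of the 8, and all 4 thymocyte arrays were near the control level. The means were 10.33 ± 0.71 in leukemias and 5.00 ± 0.19 in thymocytes (SD, n = 8 and 4), a log2 difference of 5.32 and at least 31.6-fold. This bound sets each thymocyte array at its control level where its own value was lower. By the measured log2 difference it was rank 1 of the increases among 8251 genes, which is how the gene was chosen, so no test of it is given. The leukemia mean lay at percentile 98.1 of the leukemia means of all genes, and the thymocyte mean at percentile 23.3 of theirs.

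The 2 probe sets of Drc1 disagreed in size. On the other one (162404_i_at) the levels averaged 6.90 ± 0.29 in leukemias and 6.17 ± 0.29 in thymocytes, a difference of 0.73, or 1.66-fold. By its name this probe set was treated as open to possible cross-hybridization. The groups still did not overlap there, with the lowest leukemia 0.07 above the highest thymocyte array. Over the 8 leukemias the probe sets correlated at 0.81. The mean of both gives a log2 difference of 3.03, so the direction is shared by both probe sets while the size rests on the brighter one. Why they differ was not tested.

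Myo6, on chromosome 9, had levels of 10.24, 11.20, 10.24, 11.32, 9.59, 10.79, 9.33 and 11.19 in leukemias 1 to 8 on its brightest probe set (92382_at), against 5.52, 5.235, 5.18 and 5.35 in the thymocyte arrays. The groups did not overlap, and here leukemias 5 and 7 were the lowest while leukemia 1 lay in the middle. The means were 10.49 ± 0.76 in leukemias and 5.32 ± 0.15 in thymocytes, a log2 difference of 5.17, at least 33.5-fold and rank 2 of the increases by the measured difference. Set at the control level in thymocytes, the bound for Myo6 was above that for Drc1, so the order of these 2 is not settled. Of the thymocyte arrays, 3 of 4 were near the control level. Its other probe sets gave smaller differences: 3.71, or 13.1-fold, on one whose name marks possible cross-hybridization (162245_f_at), and 2.29, or 4.89-fold, on the last (96560_at). On 162245_f_at the thymocyte mean was 5.60 and 1 of 4 arrays lay below the control level, so that fold is open to the background. All 3 probe sets separated the groups, by at least 1.46 between the lowest leukemia and the highest thymocyte array. Across leukemias the 3 correlated pairwise at 0.932 to 0.975. The leukemias were therefore ordered much alike by all 3 probe sets, whatever the size of the difference.

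Myl10, on chromosome 5, had levels of 8.09, 10.71, 10.45, 11.21, 9.95, 10.69, 8.59 and 10.76 in leukemias 1 to 8, against 6.63, 6.59, 6.11 and 6.45 in the thymocyte arrays. Leukemias 1 and 7 stood apart below the other 6, yet above every thymocyte array. The means were 10.06 ± 1.12 in leukemias and 6.45 ± 0.23 in thymocytes, a log2 difference of 3.61, or 12.2-fold, rank 6 of the increases. Myl10 was above the control level in all 4 thymocyte arrays, so its absence there, which "ectopic" would imply, was not shown. The other probe set of Drc1 (162404_i_at) and the dimmest of Myo6 (96560_at) were above that level in all 4 as well. A level above these controls does not by itself show expression, since the muscle genes Myog and Myod1 averaged 8.19 and 6.85 in thymocytes. Whether thymocytes express Drc1, Myo6 or Myl10 at a low level was not tested. Myl10 has 1 probe set (101195_at), and no second one to set beside it.

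Khdc1c, on chromosome 1, had levels of 8.14, 9.51, 9.10, 8.02, 9.61, 8.58, 7.09 and 9.16 in leukemias 1 to 8, against 5.29, 5.37, 5.48 and 5.49 in the thymocyte arrays. The groups did not overlap, and leukemia 7 was the lowest. Leukemia 4, highest for the other 3 genes on their brightest probe sets, was next to lowest here. The means were 8.65 ± 0.87 in leukemias and 5.41 ± 0.10 in thymocytes, a log2 difference of 3.24, or 9.46-fold, rank 9 of the increases. The thymocyte levels lay close to the control level, 1 of 4 below it, so this fold is open to the background. Its only probe set (103992_f_at) has a name that marks possible cross-hybridization with related transcripts, and the RefSeq table exchanges names between Khdc1b and Khdc1c among its synonyms. The signal is therefore given under the name in the platform annotation, and which member of the family it reads was not tested. Khdc1b, the neighbour in the genome and closest measured relative, had its own probe set at 5.68 ± 0.11 in leukemias and 5.75 ± 0.13 in thymocytes (log2 difference -0.07, limma adjusted p = 0.64).

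**Figure D1:**
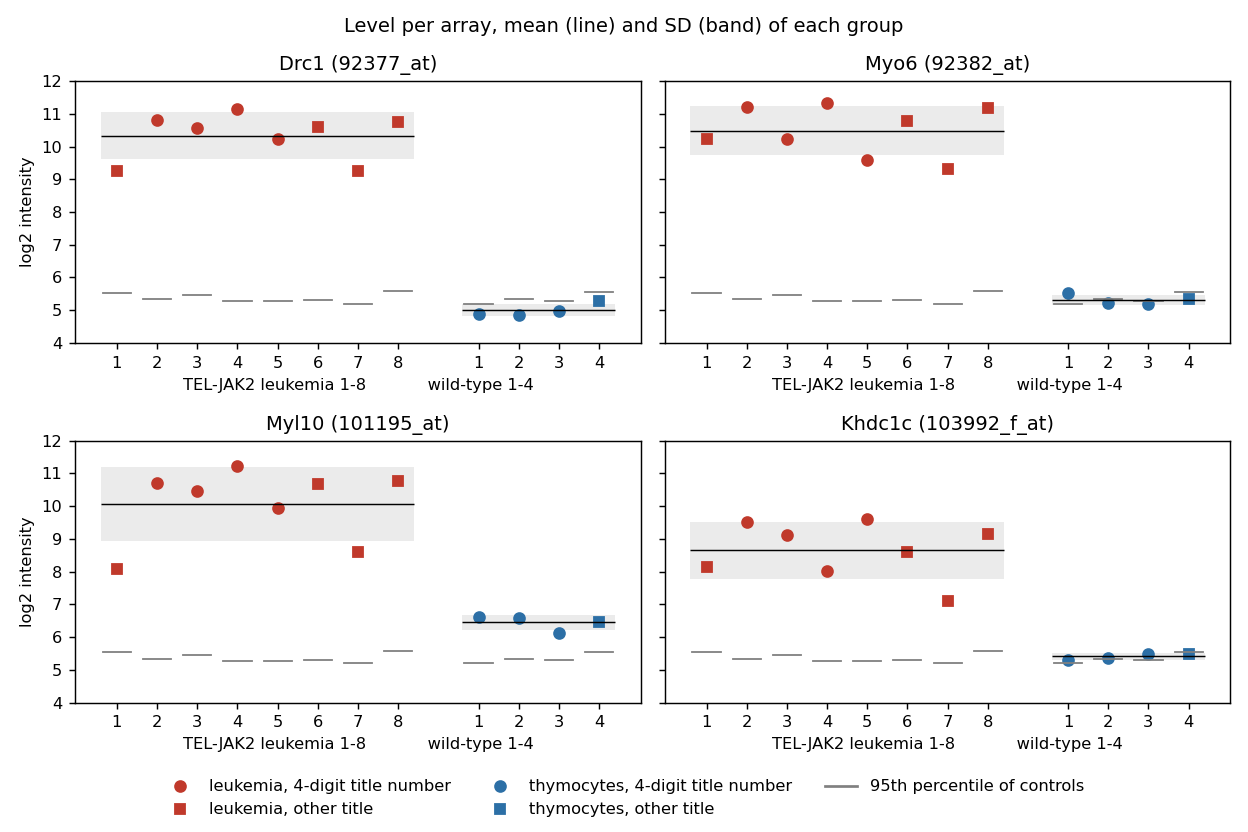
Level of each gene on every array (log2 intensity, y axis) for TEL-JAK2 leukemias 1 to 8 (red) and wild-type thymocyte arrays 1 to 4 (blue). Lines and bands are group means and SDs, short grey lines the control level of each array, circles arrays whose title number has 4 digits and squares the others. Leukemias 1 and 7 are lowest for Drc1 (9.26 and 9.24) and Myl10 (8.09 and 8.59).

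**Figure D2:**
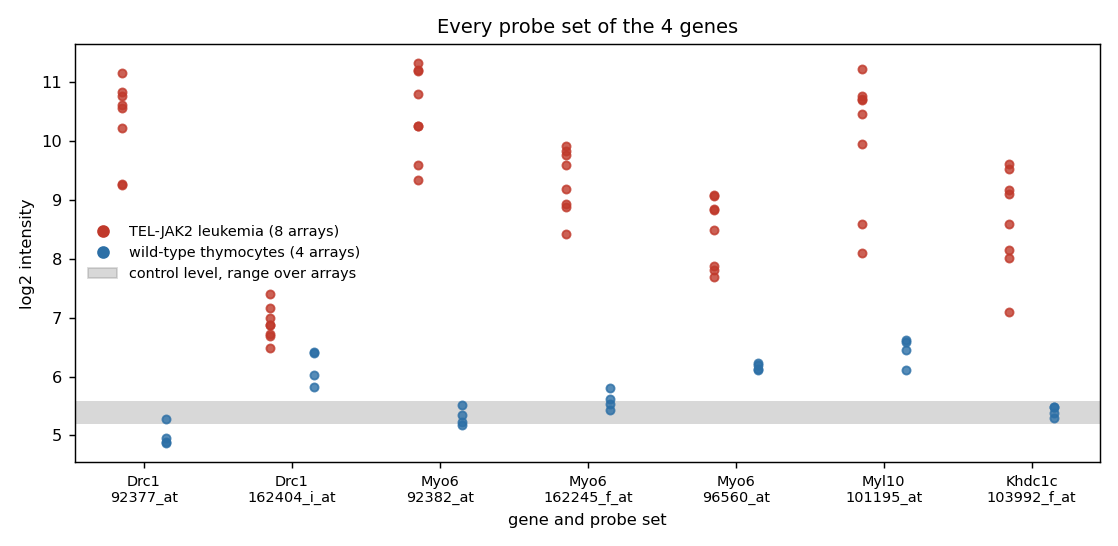
Every probe set of the 4 genes (x axis) with 1 point per array (log2 intensity, y axis), leukemias in red left of thymocytes in blue, and the range of the control level as a grey band. No probe set has overlapping groups, but the mean difference runs from 0.73 to 5.32.

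For all 4 genes each leukemia lay above each thymocyte array, as it did for 4.21% of all genes, which follows from how the 4 were selected. In bulk RNA, more cells that express a gene and more of its RNA in each cell cannot be told apart. Leaving out any single array kept them at 5.21 to 5.48 for Drc1, 5.05 to 5.33 for Myo6, 3.45 to 3.89 for Myl10 and 3.11 to 3.47 for Khdc1c.

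The high levels were not uniform among leukemias. On the brightest probe set of each gene, the SD over the 8 leukemias was 0.71 for Drc1, 0.76 for Myo6, 1.12 for Myl10 and 0.87 for Khdc1c. These lay at percentiles 98.0, 98.4, 99.6 and 98.8 of all genes. On the linear scale the brightest leukemia exceeded the dimmest by 3.75-fold for Drc1, 3.97-fold for Myo6, 8.68-fold for Myl10 and 5.75-fold for Khdc1c. Leukemia 4 was the highest for Drc1, Myo6 and Myl10, and leukemia 5 for Khdc1c. The spread was smaller on the other probe sets, with an SD of 0.29 and a 1.89-fold range for Drc1 (162404_i_at). For Myo6 these were 0.54 and 2.80-fold (162245_f_at), and 0.58 and 2.61-fold (96560_at), where leukemia 8 was the highest.

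The only label that splits the leukemias is the title number, which has 4 digits in 4 leukemias (2, 3, 4 and 5) and not in the others (1, 6, 7 and 8), and the sources used here do not say what it stands for. For Drc1 the means were 10.69 ± 0.39 in leukemias with a 4-digit number and 9.97 ± 0.83 in the others (SD, n = 4 each), a difference of 0.72 (SE 0.38). Its limma adjusted p was 0.27 over all genes and its exact permutation p was 0.2, two-sided. Myo6 differed by 0.20 (SE 0.47, exact p = 0.686), Myl10 by 1.05 (SE 0.61, exact p = 0.286) and Khdc1c by 0.82 (SE 0.47, exact p = 0.257). No gene of the 4 passed, with limma adjusted p of 0.825, 0.312 and 0.305 for the last 3, while 436 genes, or 5.28%, did. That count moved between 0 and 546 as single leukemias were left out, being 0 without leukemia 2 or 4, 19 without 7, 77 without 1, 112 without 3, 138 without 6 and 246 without 5. At an unadjusted p under 0.05, limma counted 1644 genes without leukemia 2 and 1471 without leukemia 4. Within the arrays with a 4-digit number, the leukemia minus thymocyte differences were 5.78 for Drc1, 5.28 for Myo6, 4.14 for Myl10 and 3.68 for Khdc1c. Within the others, which hold 1 thymocyte array, they were 4.68, 5.04, 3.08 and 2.75 in the same order of genes.

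Across leukemias the levels of Drc1, Myo6 and Myl10 moved together, and no correlation of Khdc1c with them passed. Other genes moved with them too: over 8 leukemias, Myo6 ranked 347 of 1157 genes by r for Drc1 and 386 for Myl10. Because leukemias 1 and 7 stood apart below the rest for Drc1 and Myl10, by gaps of 50.4% and 43.6% of the range over leukemias, correlations with these genes were computed within the other 6 leukemias, a choice made after seeing the data. Drc1 and Myl10 correlated at r = 0.975 over the 6 (rho = 0.943, exact permutation p = 0.00694 and 0.0167, adjusted 0.025 and 0.075), with r = 0.750 without the 2 leukemias farthest from the Drc1 median. Drc1 and Myo6 correlated at r = 0.908 over the 6 (rho = 1.0, exact p = 0.00417 and 0.00278, adjusted 0.025 and 0.05), with r = 0.917 without the 2 farthest. Myo6 and Myl10 correlated at r = 0.924 over the 6 (rho = 0.943, exact p = 0.00278 and 0.0167, adjusted 0.025 and 0.075), and at 0.626 without the 2 farthest, so this relation leans on those 2 leukemias. Adjustment was by Benjamini-Hochberg over 18 correlations given. Khdc1c correlated with Myo6 at r = 0.30 over 8 leukemias (rho = 0.12, exact p = 0.463 and 0.793, adjusted 0.556 and 0.84), and at r = 0.16 without the 2 farthest. Within the 6 leukemias Khdc1c correlated at -0.69 with Drc1 and at -0.78 with Myl10, which did not pass (exact p = 0.131 and 0.0722, adjusted 0.235 and 0.144, rho = -0.49 and -0.54, each with adjusted p = 0.492). These signs turned, to 0.71 and 0.07, without the 2 farthest. No correlation is given within the 4-digit leukemias or the others, since each set holds 4, too few for one.

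The leukemias low in Drc1 and Myl10 were low in a score of thymocyte genes too. The score, a mean log2 difference from thymocytes, covers 15 measured genes of double-positive thymocytes, the CD4+ CD8+ stage. It was -2.88 in leukemia 1 and -2.37 in leukemia 7, against -1.54 to -0.94 in the other 6. Of the 15, 9 were lower in leukemia and 6 did not pass, against 11.9% of all genes lower. The brightest, Cd8b1 and Cd8a, did not pass (-0.49 and -0.45, limma adjusted p = 0.18 and 0.23). Dntt, the enzyme that adds bases at V(D)J joins in precursor lymphocytes, had 7.53 and 8.30 in leukemias 1 and 7, 9.999 to 11.12 in the other leukemias, and 11.66 to 11.77 in thymocytes. Its log2 difference of -1.72 (limma adjusted p = 0.064) equals the median of that list. With 15 genes the median is the value of a member, so Dntt is taken to be in the score and adds no separate support. Within the 6, no correlation of the 4 genes with the double-positive score passed (r = 0.64 for Drc1, 0.38 for Myo6, 0.48 for Myl10 and -0.26 for Khdc1c, exact p = 0.172, 0.443, 0.372 and 0.604, adjusted 0.258, 0.556, 0.515 and 0.68). All 4 signs turned without the 2 leukemias farthest from the score's median, to r of -0.28, -0.54, -0.38 and 0.28, and rho had adjusted p of 0.492 to 0.741. A score over 13 measured genes of natural killer cells was 0.63 and 0.70 in leukemias 1 and 7, against -0.14 to 0.42 in the other 6. The summed intensity of that list was 543 to 1957 in leukemias and 549 to 571 in thymocytes. In limma 1 gene of the 13 was higher and 1 lower, against 5.41% and 11.9% of all genes. Its brightest members were Il2rb, a cytokine receptor chain that other lymphocytes also make, and Tyrobp, a signalling adaptor. Il2rb rose, with 6.97 to 9.83 in leukemias and 6.30 to 6.39 in thymocytes (log2 difference 1.78, limma adjusted p = 0.018), and Tyrobp had 6.60 to 8.94 in leukemias and 6.85 to 6.98 in thymocytes (adjusted p = 0.27). Ncr1, Klra3, Klra7, Klrc1, Klrd1, Klrk1, Klrg1 and Eomes were near the control level in leukemia. The part of these cells in the low levels of these 2 leukemias was not tested.

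Myo6 was lower where macrophage transcripts were higher. Its correlation with a score over 26 measured macrophage genes was r = -0.954 over the 8 leukemias (exact permutation p = 0.000794, adjusted 0.0143, rho = -0.881 with exact p = 0.00724, adjusted 0.0652), and -0.844 without leukemias 5 and 7. The score was 0.41, 0.17, 0.80, -0.17, 1.12, -0.01, 1.29 and 0.00 in leukemias 1 to 8, so leukemias 3, 5 and 7 were the high ones. Myl10 showed the same sign within its 6 leukemias, with r = -0.918 (exact p = 0.00556, adjusted 0.025, and -0.812 without the 2 farthest) and rho = -0.829 (exact p = 0.0583, adjusted 0.175). Drc1 had r = -0.845 there (exact p = 0.0222, adjusted 0.0667, not passed, and -0.566 without the 2 farthest), with rho = -0.771 (adjusted 0.264). Khdc1c had r = -0.16 over 8 (exact p = 0.71, adjusted 0.752) and rho = 0.07 (adjusted 0.882).

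The macrophage list as a whole did not separate the groups. Its summed intensity was 2845 to 10552 in leukemias and 2962 to 3851 in thymocytes. In limma 0 of 26 genes passed, against 17.3% of all genes, with a median log2 difference of 0.37 over the list and 0.0037 over all genes. Of the 26, 18 were above the control level. The brightest were Ctsb, a lysosomal protease (9.19 to 10.07 in leukemias and 9.06 to 9.34 in thymocytes), and Apoe, an apolipoprotein (7.79 to 10.48 in leukemias and 8.43 to 9.36 in thymocytes). The other members Adgre1, Mrc1, Msr1, Marco, Fcer1g, Cybb, Itgam and Spic were near the control level in leukemia. Without leukemias 3, 5 and 7, the log2 differences of the 4 genes were 5.52 for Drc1, 5.63 for Myo6, 3.85 for Myl10 and 3.27 for Khdc1c. The part of macrophage RNA in the spread among leukemias was not tested. Of 15 epithelial markers, named here because epithelia make Myo6 and cilia, 1 was higher and 3 were lower, against 5.41% and 11.9% of all genes. Their summed intensities were 943 to 1237 in leukemias and 1170 to 1249 in thymocytes. Of the 15, 11 were above the control level, the brightest being Krt8, a keratin (8.14 ± 0.29 in leukemias and 8.22 ± 0.16 in thymocytes), and Cdh1, E-cadherin (6.99 ± 0.18 in leukemias and 6.92 ± 0.15 in thymocytes). Krt8 and Cdh1, named as the brightest, were not among the 1 higher and 3 lower markers (limma adjusted p = 0.75 and 0.69). They therefore do not stand for the whole list. Epcam, Krt18, Krt19, Foxn1 and Ccl25 were near the control level in leukemia.

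The score of 16 STAT target genes did not pass with any of the 4 genes as deposited. It correlated with Myo6 at r = -0.77 over 8 leukemias (rho = -0.71, exact p = 0.0312 and 0.0576, adjusted 0.0802 and 0.175), and at -0.74 without the 2 farthest. Under quantile normalization and under centring of arrays this correlation passed, at -0.87 (adjusted p = 0.0216, exact) and -0.86 (adjusted p = 0.0286, exact). For Khdc1c it was 0.13 (exact p = 0.762, adjusted 0.762, rho = 0.29 with adjusted p = 0.644), and -0.59 without the 2 farthest. Within the 6 leukemias it was -0.66 for Drc1 and -0.78 for Myl10 (exact p = 0.16 and 0.0542, adjusted 0.258 and 0.122, rho = -0.60 and -0.66 with adjusted p = 0.483 and 0.394). Both turned positive, 0.51 and 0.22, without the 2 farthest.

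**Figure D3:**
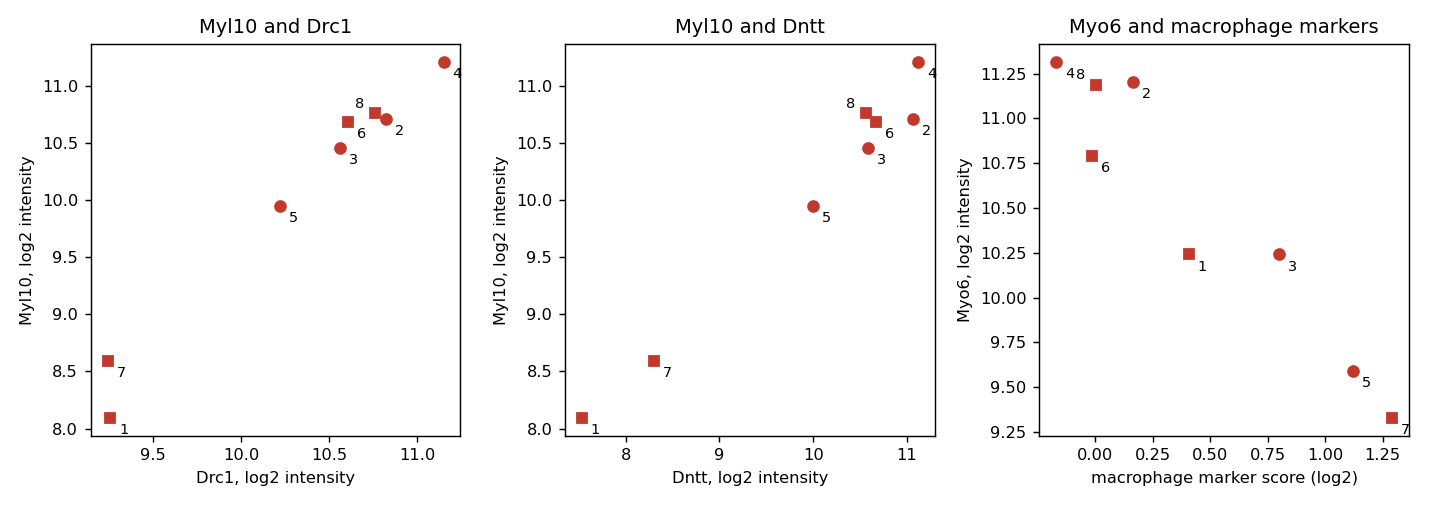
Each point is a leukemia with its number, a circle where the title number has 4 digits and a square otherwise. Left, Myl10 against Drc1, middle, Myl10 against Dntt (all log2 intensity), and right, Myo6 (log2 intensity) against the macrophage score (mean log2 difference from thymocytes), where r = -0.954. Leukemias 1 and 7 lie apart in the left and middle plots.

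The genes most like each of the 4 were ranked by Pearson r over the 8 leukemias among 1157 genes that were above the control level in leukemia and had an SD of at least 0.3, which describes likeness and is no test. Leukemias 1 and 7 stand apart for Drc1 and Myl10 and raise such values, so for these 2 genes the r given is that within the other 6 leukemias. For Drc1 the closest were Ap3s1, a subunit of the AP-3 vesicle adaptor (0.992), Rmnd5a, a ubiquitin ligase subunit (0.989), Myl10 (0.975), Hnrnpll, a splicing regulator of lymphocytes (0.955), and Usp22, a histone deubiquitinase (0.924). For Myl10 they were Ap3s1 (0.980), Edem1, which acts in the removal of misfolded glycoproteins (0.924), Dntt (0.890), Drc1 (0.975) and Ramp1, a receptor-modifying protein (0.831). Gpx3, a secreted glutathione peroxidase, ranked most opposite to both (-0.917 with Drc1 and -0.969 with Myl10), followed by Mapkapk2 and Chchd10 for Drc1 (-0.943 and -0.900) and by Txndc5 and Tspan4 for Myl10 (-0.888 and -0.839).

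Drc1 and Myl10 were among the 5 closest genes of each other in that ranking. Ap3s1, the top gene for both, was not higher in leukemia: it averaged 9.31 ± 0.59 in leukemias and 9.88 ± 0.10 in thymocytes (log2 difference -0.57, SE 0.27, limma adjusted p = 0.18). Rmnd5a fell, to 9.07 ± 0.53 in leukemias against 11.52 ± 0.18 in thymocytes (log2 difference -2.44, SE 0.25, limma adjusted p = 2.5e-05).

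For Myo6 the closest genes were Anp32e, a histone chaperone (0.957), Strbp, an RNA-binding protein (0.953), Ezh2, the Polycomb histone methyltransferase (0.9503), Tubb3, a tubulin (0.9503), and Csnk1e, a casein kinase (0.948). Of these, Anp32e (log2 difference -1.46, limma adjusted p = 3.8e-05), Ezh2 (-0.96, adjusted p = 0.0019) and Csnk1e (-1.15, adjusted p = 0.0027) were lower in leukemia, and the other 2 did not pass. Most opposite to Myo6 were Rrbp1, Lyl1 and Vcam1, an adhesion molecule of stromal cells and macrophages (-0.969, -0.964 and -0.964). Drc1 ranked 108 and Myl10 ranked 186 for Myo6. In the other direction Myo6 ranked 347 for Drc1 (0.784) and 386 for Myl10 (0.718), so many genes were closer to each than Myo6. These values are over the 8 leukemias, and within the 6 without 1 and 7 those of the 5 closest genes were 0.913 to 0.959.

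For Khdc1c the likeness was weaker: Cxxc5, a zinc-finger protein (0.893), Yy1, a transcription factor (0.857), Ptcra, the pre-T-cell receptor alpha chain (0.819), Ptpn13, a tyrosine phosphatase (0.817), and Clasrp (0.799) were the closest, and Ctse, Sptan1 and Bgn the most opposite (-0.847, -0.799 and -0.798). Within the 6 leukemias without 1 and 7, Cxxc5 had 0.774, Yy1 0.731, Ptcra 0.537, Ptpn13 0.489 and Clasrp 0.265, and Bgn had -0.05. Drc1 ranked 138 for it and Myo6 ranked 487.

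Over all 12 arrays, where the step between groups sets most of r, the closest gene to Drc1 was Myo6 (0.988), followed by Mdfic, a regulator of transcription, and Sfrp2, a secreted Wnt antagonist (0.988 and 0.987), out of 1497 genes. The closest to Myo6 was Drc1, followed by Mdfic and Selplg, the ligand of P-selectin (0.985 and 0.976). For Myl10 they were Ifngr1, an interferon-gamma receptor chain, Npc2, a lysosomal cholesterol carrier, and Elovl5, a fatty-acid elongase (0.989, 0.982 and 0.979). For Khdc1c they were Ptpn13, Rusc1 and Trgv1, a variable segment of the T-cell receptor gamma chain (0.972, 0.951 and 0.948). The names of the probe sets of Dntt, Tubb3, Lyl1 and Ctse mark possible cross-hybridization.

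Few genes of the same families and structures changed between the groups. Of 344 genes in 8 related lists, which leave out the 4 genes, 171 were measured: 4 were higher and 5 lower in leukemia, or 5.26%, against 17.3% of all genes. By list the share that passed ran from 0% to 13.6%, the latter for axoneme genes, which was nearest to that of all genes. The median log2 difference of the 171 was 0.04, against 0.0037 over all genes. Restricted to genes above the control level, 8 of 102 passed, against 22% of all such genes (1329 of 6037). In 3 of the 171 each leukemia lay above each thymocyte array and in 3 below, against 4.21% and 8.11% of all genes. At an unadjusted p under 0.05, limma counted 25 of the 171 and 2338 of all genes. One gene of the 171, Myo5b, changed by more than 1 on the log2 scale upward, on its brightest probe set and not as the mean of its probe sets, and Mns1 did so downward. The count of lower genes moved from 5 to 3 without leukemia 1 or 8 or thymocyte array 3, to 2 without thymocyte array 2, to 1 without thymocyte array 1, and to 9 without leukemia 4. That of higher genes moved from 4 to 2 without thymocyte array 1 or 2.

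Among motors and their partners, 1 of 20 myosin heavy chains rose. Myo5b, a motor of recycling vesicles, had 5.79, 8.33, 8.41, 8.85, 6.73, 7.46, 6.34 and 7.09 in leukemias 1 to 8, against 5.54 to 5.85 in thymocytes. The groups overlapped through leukemia 1, and leukemias 2, 3 and 4 were highest. Its log2 difference was 1.65 (SE 0.49, limma adjusted p = 0.032) on its brightest probe set and 0.81 (adjusted p = 0.0376) as the mean of its probe sets. The first is a call lost without leukemia 3 or without any single thymocyte array, with adjusted p up to 0.0836. Myo7a, another myosin whose loss causes deafness in mice, had 6.39 ± 0.13 in leukemias and 6.37 ± 0.09 in thymocytes (adjusted p = 0.92).

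Of 15 adaptors and cargo partners of Myo6, 1 fell: Cltc, the clathrin heavy chain (-0.38, limma adjusted p = 0.04). At an unadjusted p under 0.05, limma counted 6 of the 15, against 2338 of 8251 genes. The adaptors themselves did not pass the adjusted threshold, with Dab2 at 0.10, Gipc1 at 0.16 and Tax1bp1 at -0.27 (adjusted p = 0.48, 0.41 and 0.083). The probe sets of Gipc1 and Tax1bp1 have names that mark possible cross-hybridization. The call of Cltc was lost without leukemia 1, 7 or 8 or thymocyte array 1, 2 or 3, and without leukemias 1 and 7 or 3, 5 and 7 together.

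Of 15 myosin light chains and their enzymes, 1 fell: Rock1, a kinase that promotes light-chain phosphorylation (-0.53, limma adjusted p = 0.014). The call was lost without thymocyte array 1 or 2, without leukemias 3, 5 and 7 (adjusted p = 0.0749), with 4-digit arrays alone (-0.42, adjusted p = 0.0911) and as the mean of its probe sets (-0.38, adjusted p = 0.0869). Mylpf, the light chain of fast muscle, had a difference of -0.08 (adjusted p = 0.53), and Myl9, of smooth muscle, was near the control level in both groups. Of 34 striated muscle genes, 2 rose, Actn2, a Z-disc protein (0.79, at least 1.37-fold, adjusted p = 0.0026), and Ryr1, a calcium channel (0.53, adjusted p = 0.0022), which was near the control level in both groups. No light chain of the list rose as Myl10 did, and 32 of the muscle genes did not pass.

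Among cilium genes, 1 of 22 axoneme genes rose and 2 fell, or 13.6%, against 17.3% of all genes. Of the 16 above the control level, 3 passed, against 22% of all such genes. Mns1, a filament protein inside axonemal microtubules, was below all thymocyte arrays in all 8 leukemias, with 7.29 ± 0.68 in leukemias and 8.48 ± 0.13 in thymocytes (log2 difference -1.18, SE 0.31, limma adjusted p = 0.016), a call lost without thymocyte array 1 and with 4-digit arrays alone (-0.93, adjusted p = 0.084). Cfap20, a ciliary protein, averaged 6.05 ± 0.11 in leukemias and 6.65 ± 0.02 in thymocytes (-0.60, adjusted p = 4.8e-05), a call kept whichever array was left out. Rsph1, a radial-spoke protein, was higher by 0.28 (adjusted p = 0.03) on a probe set open to cross-hybridization, a call lost without leukemia 8 or thymocyte array 1, 2 or 3, and without leukemias 1 and 7 or 3, 5 and 7 together. Gas8, which encodes another subunit of the complex that holds Drc1, had 6.09 ± 0.08 in leukemias and 6.03 ± 0.02 in thymocytes (adjusted p = 0.58). Foxj1 and Rfx2, regulators of motile cilia, differed by 0.10 and -0.06 (adjusted p = 0.55 and 0.78). Of 23 genes of transport in the cilium and of its base, 1 passed, Pcm1, a protein of centriolar satellites (measured difference -0.34, adjusted p = 0.043). Its mean was 5.00 in leukemias, below the control level, and 5.35 in thymocytes, close to it, so no fold can be given. The call was lost without leukemia 1, 2, 3, 6 or 8 or thymocyte array 1, 2 or 3, and without leukemias 1 and 7 or 3, 5 and 7 together.

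None of 31 genes of the Khdc1 family, oocytes and cleavage-stage embryos passed in limma, against 17.3% of all genes, with 2 at an unadjusted p under 0.05. Of the 31, 12 were above the control level in at least 1 group, and the rest were near it in both. Mos, an oocyte kinase, had a difference of 0.06 (adjusted p = 0.57), and Dppa3, an egg protein, was near the control level in both groups. None of 11 inner ear genes passed either, with 0 at an unadjusted p under 0.05, and 5 of the 11 were above the control level. Genes near that level in both groups can show little change, so these counts do not show that the lists were unchanged.

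**Figure D4:**
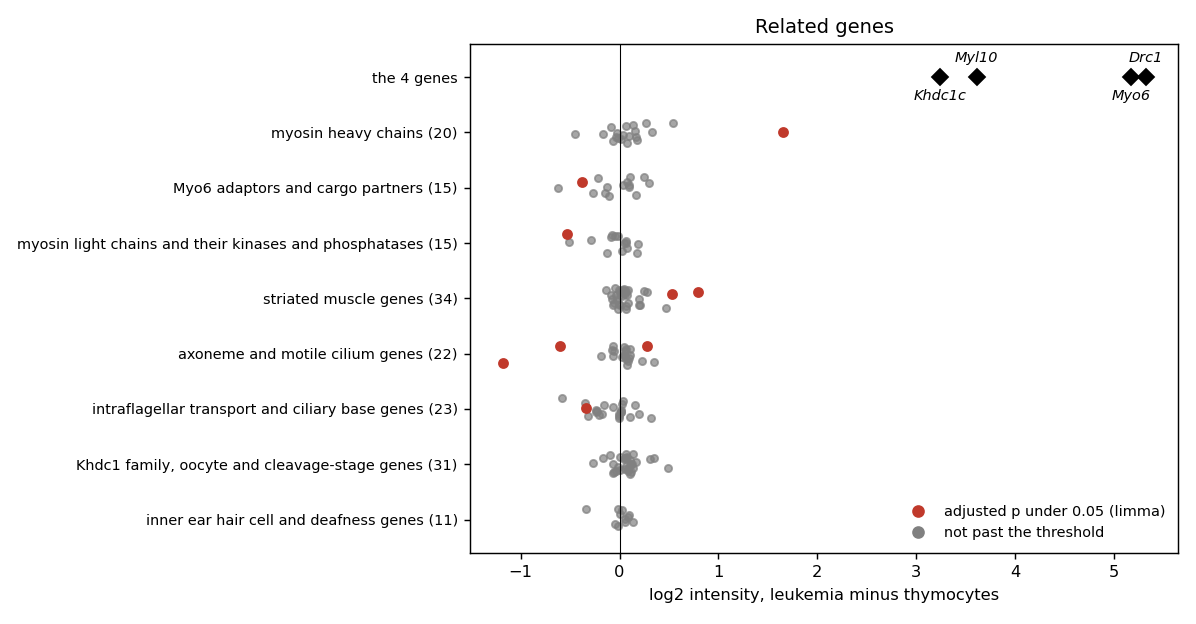
Log2 difference, leukemia minus thymocytes (x axis), of the 4 genes (diamonds) and of each measured gene of the 8 related lists (points, number measured in brackets), red where the limma adjusted p is under 0.05. Vertical scatter within a list has no meaning. Each gene is shown by its brightest probe set, on which Myo5b, at 1.65, is the only point above 1 (0.81 as the mean of its probe sets).

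None of the nearest measured genes in the genome was higher in leukemia past the threshold. For each, the 5 nearest measured genes before and after it in the order of the RefSeq table were taken, 10 in all. They are the nearest with a probe set, not the nearest genes. Some lie more than a megabase away, such as Prim2 and all 5 after Myo6, Ttk among them. None of those around Drc1 passed, with differences from -0.27 to 0.35, including Hadhb and Kcnk3, its nearest measured neighbours (0.02 and -0.05, limma adjusted p = 0.87 and 0.71). Around Myo6, 1 fell: Ttk, a mitotic kinase (-0.51, adjusted p = 0.0068), while Senp6, the nearest on one side, had -0.32 (adjusted p = 0.21). Around Myl10, 1 fell: Polr2j, an RNA polymerase subunit (-0.30, adjusted p = 0.028), a call lost without thymocyte array 1, 2 or 4, without leukemias 3, 5 and 7 (adjusted p = 0.098) and with 4-digit arrays alone (-0.19, adjusted p = 0.153). Around Khdc1c, 1 fell: Mcm3, of the replicative helicase (-0.61, adjusted p = 0.0048), on a probe set open to cross-hybridization. Ttk and Mcm3 passed whichever array was left out. These are 3 of 40 genes, all lower, against 11.9% of all genes lower and 5.41% higher. Drc1 and Myl10 lie on the same chromosome, and neither is among the measured neighbours of the other.

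**Figure D5:**
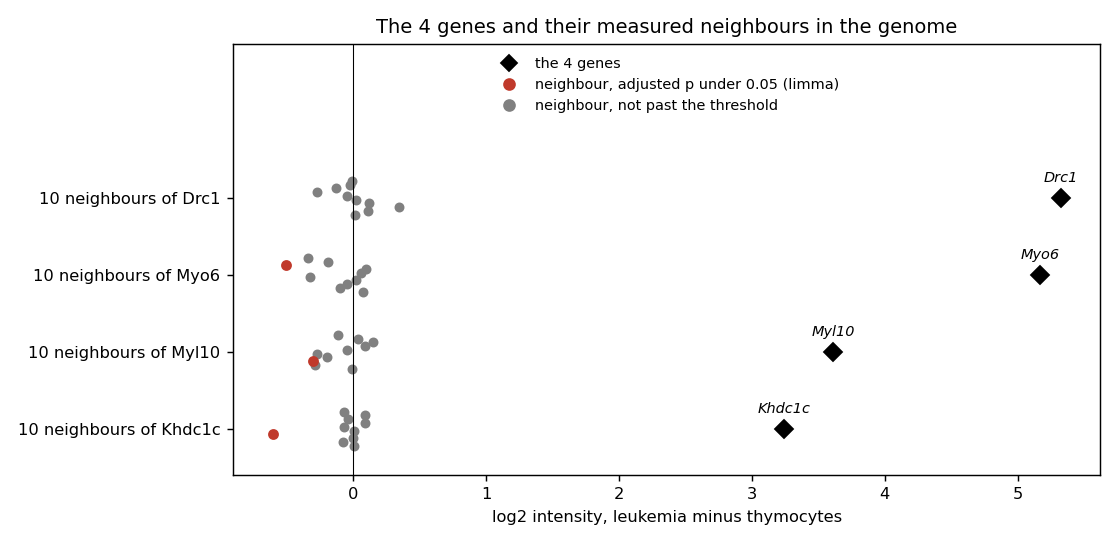
Log2 difference, leukemia minus thymocytes (x axis), of each of the 4 genes (diamonds) and its 10 nearest measured genes (points, red where the limma adjusted p is under 0.05). The diamonds lie between 3.24 and 5.32 and every neighbour between -0.61 and 0.35.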

How the data were processed

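The authors deposited 1 intensity per probe set and array, which the submitters' processing notes say came from RMA. The sources used here give no RMA version, later steps or build behind the annotation. The table held 12488 probe sets on 12 arrays, of which 66 were Affymetrix controls, and the platform annotation gave 1 gene for 10833, several for 396 and none for 1193. Intensities, all above 0, were converted to log2 with no offset. Each gene was represented by its probe set of highest mean over all arrays. Groups were compared with limma 3.58.1 in R 4.3.3 (lmFit, eBayes, no covariate), two-sided, with Benjamini-Hochberg adjustment over 8251 genes, tested on simulated data first. The 4 genes and all lists were chosen with earlier results of these data known, so their difference between groups is a description. Correlations used exact permutation tests (SciPy 1.17.1). A correlation was not tested over all leukemias where neighbouring values of either measure were separated by over 40% of its range, and of 22 relations, the 4 with a natural killer cell score, which split the leukemias 4 and 4, were not given. Rankings by likeness carry no test. Named genes follow a rule: closest patterns, calls in the lists with the largest moderated statistic, closest relatives, called neighbours and identity genes. Other list genes (Dab2, Gipc1, Tax1bp1, Foxj1, Rfx2, Mos, Dppa3) and uncalled neighbours were named after their values were seen. RefSeq tables of GRCm38.p6 gave names, gene order and promoters. Precision is limited by the number of arrays.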

Additional observations from a re-analysis of the deposited data

How the results depend on the processing

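The log2 differences of the 4 genes kept their sign under quantile normalization, centring, a block for title numbers, 4-digit arrays alone, the mean of probe sets, each other probe set, linear means, leaving out each array, and, chosen after seeing the data, leaving out leukemias 1 and 7 or 3, 5 and 7. Without cross-hybridizing probe sets Khdc1c has no value. Brighter genes alone and trend and robust variance bear only on calls. The size of the differences moved with the probe set: Drc1 had 3.03 as the mean of its probe sets and 0.73 on its other one, and Myo6 had 3.72 as the mean and 3.71 and 2.29 on its others. Of the related genes, 3 were lower with 4-digit arrays alone, 2 higher and 3 lower among genes above the median level, 3 lower without leukemias 1 and 7, and 2 lower without 3, 5 and 7. Under quantile normalization the correlation of Myo6 with STAT targets was -0.87, that of Myl10 with them over 6 leukemias -0.88, and that of Drc1 with macrophage markers -0.89, all past the threshold, and under centring the first and last were -0.86 and -0.88. The causes were not tested. Leaving out single arrays gave 304 to 483 genes higher and 626 to 1135 lower (626 without thymocyte array 1 and 655 without 2), 2 to 5 related genes higher and 1 to 9 lower, and 0 to 546 genes by title number. It moved the title-number difference of Myo6 between -0.15 and 0.53, and the correlation of Khdc1c with STAT targets between -0.21 and 0.55, with Myo6 between -0.27 and 0.66 and with macrophage markers between -0.49 and 0.53. No paired analysis was possible because the groups share no title numbers. Dixon's test, which looks for 1 extreme value, flagged no array in 14 groups of values. Such a test can miss 2 arrays that are low together, as leukemias 1 and 7 were for Drc1 and Myl10.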
